A study of Mus musculus with 12 samples.

Results

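The bodies of 54 housekeeping genes were compared with the DNA around them in 12 cell lines in which CpG methylation had been newly written by a single human enzyme. The genes encode RNA polymerase II subunits, translation factors, spliceosome components, transport proteins, replication proteins, chaperonins, proteasome subunits and metabolic enzymes. All 54 were found among 20350 annotated protein-coding genes longer than 2 kb. A gene body ran from 2 kb downstream of the start to the end of the gene, and its flanks were the 50 kb on either side of the gene. In both, CpG sites with fewer than 12 CpG sites within 100 bp on each side were used, so that the most CpG-dense sites were left out. Coverage was sufficient in every line for 47 of the 54 genes and for 12533 genes in all (at least 5 covered sites and 20 reads in the body and in the flanks of every line).

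The cells were mouse embryonic stem (ES) cells in which Dnmt1, Dnmt3a and Dnmt3b had been knocked out (TKO). They expressed human DNMT3A, DNMT3B or the DNMT3B mutants N656I, K777A or N779A from a stably integrated plasmid with a constitutive promoter under Zeocin selection, with 2 independently derived lines per group. There were 2 sets of WT DNMT3B lines, named set a (the counterpart of DNMT3A and N656I) and set b (the counterpart of K777A and N779A). Methylation was read by enhanced reduced representation bisulfite sequencing (eRRBS), which sequences bisulfite-treated restriction fragments, and a methylation level is the share of methylated reads among all reads.

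All groups thus also lacked the maintenance enzyme DNMT1. The protein level of the enzyme in each line was not analysed here, and a line can be a pool of cells or 1 clone. Neither TKO cells without an enzyme nor cells with an empty plasmid were analysed here, so no background level can be set beside the values. ES cell identity, transcription of the genes and their histone marks cannot be checked in methylation counts.

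RNA polymerase II carries the enzyme SETD2, which places trimethylation on lysine 36 of histone H3 (H3K36me3) across the bodies of transcribed genes, with more of the mark towards their ends. DNMT3A and DNMT3B both have a PWWP domain that can bind methylated H3K36, and in mouse ES cells DNMT3B in particular is known to be drawn to bodies of actively transcribed genes through this mark. Starts of housekeeping genes usually lie in CpG islands that stay free of methylation.

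Total reads on CpG sites were between 16224222 and 36029921 per line. One library stood apart: line 2 of DNMT3B set a covered 1030180 sites, whereas the other 11 lines covered 3584666 to 10717789. In the housekeeping genes this line had a median of 15 covered body sites per gene, against 50 to 154 in the others. The median absolute deviation of its body-flank differences over all genes was 1.32, against 0.33 to 0.55 in the other lines. Ranges over 9 DNMT3B-family lines leave this line out, and its own value is then given beside them.

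Single CpG sites show what the counts are made of. For the 5 highest and the 5 lowest genes, by the mean over the 4 WT DNMT3B lines, the body site with reads in the most lines was chosen by coverage alone, and the 8 sites in coding exons or introns are given with 20 bases on each side, on the forward strand of GRCm38 and with the CpG in capitals.
Snrnp200: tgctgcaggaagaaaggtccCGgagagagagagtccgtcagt
Vars: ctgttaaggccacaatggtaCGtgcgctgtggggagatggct
Polr2a: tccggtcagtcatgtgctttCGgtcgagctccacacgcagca
Mcm5: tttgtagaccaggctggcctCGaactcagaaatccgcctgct
Eif3c: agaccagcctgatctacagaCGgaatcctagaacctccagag
Cct2: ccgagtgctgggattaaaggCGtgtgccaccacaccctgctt
Msh6: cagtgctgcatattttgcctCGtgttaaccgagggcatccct
Eno1: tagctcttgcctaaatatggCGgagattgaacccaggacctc
The sites of Snrnp200 (chr2:127217221-127217262), Vars (chr17:35012515-35012556) and Polr2a (chr11:69739918-69739959) are in coding exons. Those of Mcm5 (chr8:75114784-75114825), Eif3c (chr7:126548351-126548392), Cct2 (chr10:117054651-117054692), Msh6 (chr17:87980885-87980926) and Eno1 (chr4:150238827-150238868) are in introns. At the site in Vars, 9 of 15 and 8 of 15 reads were methylated in the DNMT3A lines, 4 of 12 and 0 of 8 in set a, 0 of 6 and 1 of 5 in set b and 0 of 1 and 0 of 2 in K777A. At the site in Eno1, none of the reads of 11 lines was methylated, with 2 and 7 reads in the DNMT3A lines. Single sites had few reads in many lines, so all comparisons were made over whole bodies and flanks.

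Methylation of the housekeeping gene bodies exceeded that of their flanks in every line, by a small ratio in the DNMT3A lines and by a larger one in all 10 lines with a form of DNMT3B. Over the summed reads of all 54 genes, 39.1% of body reads and 35.4% of flank reads were methylated in DNMT3A line 1, and 39.4% and 36.4% in line 2. The corresponding body and flank levels in DNMT3B set a were 24.0% and 16.7% in line 1 and 24.5% and 15.6% in line 2. In the first pair of lines the body was 1.11 and 1.08 times as methylated as the flanks, and in the second 1.44 and 1.57 times. The 95% Wilson intervals of these levels were within 0.716 percentage points of the value for bodies and 0.328 for flanks, and they cover counting error only.

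N656I, a mutant of a residue in the catalytic domain, had body levels of 21.2% and 15.6% and flank levels of 15.3% and 10.8% in its 2 lines, ratios of 1.38 and 1.44. Lines of DNMT3B set b had ratios of 1.28 and 1.46, at body levels of 19.2% and 19.5%. K777A had the lowest levels of all, with 11.7% in the bodies and 6.91% and 6.97% in the flanks. Its ratios of 1.70 and 1.68 were above those of the other 10 lines. In percentage points its gaps of 4.8 and 4.7 were within the 4.2 to 8.9 of the other DNMT3B-family lines. N779A, the mutant of a neighbouring residue, had a ratio of 1.49 in line 1 and 1.5 in line 2. Summed over all genes tested, the body to flank ratio was at most 1.21 in each of the 12 lines, so that the 54 genes lay below all genes in both DNMT3A lines and above them in all 10 DNMT3B-family lines.

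To weight genes equally and put lines of different overall level on a common scale, a body-flank difference was computed per gene and line. It was the log2 odds of methylation of the body minus that of the flanks. Whether this removes the difference in level between DNMT3A and the DNMT3B forms was not tested. On this scale 1 stands for 2-fold higher odds in the body. The median over the 47 genes was 0.25 and 0.03 in the DNMT3A lines, where the median over all 12533 genes was 0.24 and 0.22. In DNMT3B set a the median of the 47 was 0.64 and 0.57, against 0.21 and -0.01 over all genes. The other 8 DNMT3B-family lines had medians of 0.39 to 0.80 for the housekeeping genes and 0.16 to 0.23 for all genes.

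The 12 lines thus fell into those with a DNMT3B form, whose lowest housekeeping median was 0.39, and the DNMT3A lines, whose higher one was 0.25. In the plot of single genes by line the black bars of the 10 DNMT3B-family lines are all above the grey bars. Since the flanks of neighbouring genes can overlap and all genes of a line share its library, these medians were not tested.

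**Figure D1:**
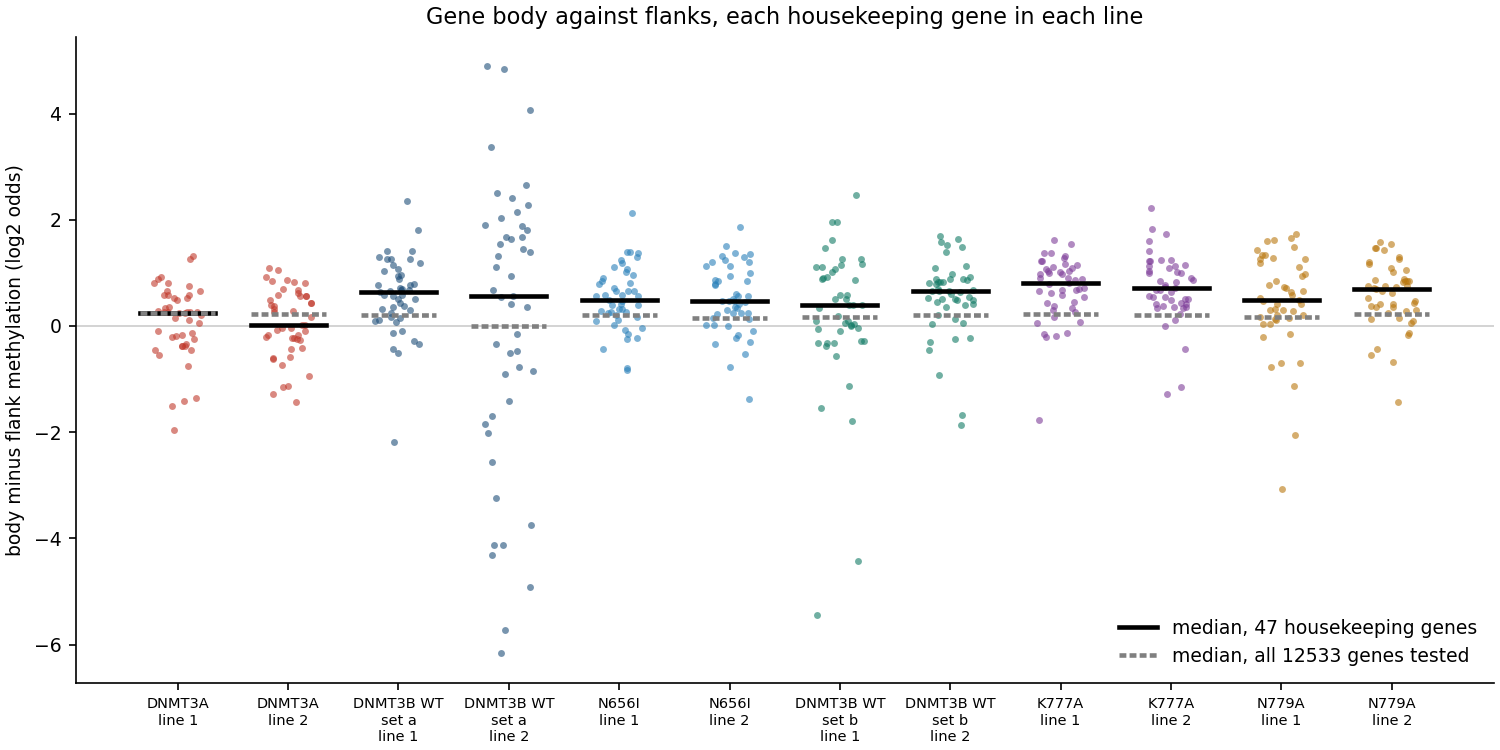
Body-flank difference (y axis, log2 odds) of each of the 47 housekeeping genes with sufficient coverage (points) in each of the 12 lines (x axis, coloured by group); black bars are the medians of these genes and grey dashed bars the medians of all 12533 genes tested. The black bar lies between 0.39 and 0.80 in the DNMT3B-family lines and at 0.25 and 0.03 in the DNMT3A lines, and the points of line 2 of DNMT3B set a are spread most widely.

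In the DNMT3A lines the body was more methylated than the flanks in 29 and 25 of 47 genes, where this held for 68.5% and 65.5% of all genes. In line 2 of set a it was so in 27 of 47 genes, between the counts of the DNMT3A lines, and in 49.8% of all genes. In the other 9 DNMT3B-family lines it was so in 31 to 44 of the 47 genes and in 58.4% to 65.2% of all genes. Of the 47 genes, 22 had a body above its flanks in all 9 of these lines, a pattern seen in 14.3% of all genes tested. With line 2 of set a added, 12 of 47 had it in all 10, against 9.13% of all genes. None of the 47 had the body below the flanks in all 9 lines, which 2.99% of all genes had. In both DNMT3A lines, 20 of the 47 bodies were above their flanks and 13 below, where all genes had 52.6% above and 18.6% below.

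Along the genes, the housekeeping genes lay above all genes towards the gene end in the DNMT3B-family lines. In the first 2 kb methylation in the 54 genes was 3.6% and 4.7% with DNMT3A and 0.6% to 2.7% in the DNMT3B-family lines. All genes tested had 15.6% and 16.5% there with DNMT3A. Each body was divided into 4 equal parts, numbered from the start. In part 1 the housekeeping genes in DNMT3A lines had 32.8% and 30.8%, below the 40.6% and 40.5% of all genes. Part 2 had 38.8% and 42.6%, against 42.4% in both lines for all genes. Part 3 had 43.3% and 40.7%, against 43.2% in both lines for all genes. Part 4 had 41.2% and 43.5%, against 43.5% and 43.3%.

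In part 1 the housekeeping genes were also below all genes in 6 of the 10 DNMT3B-family lines, by less, for example with 11.9% against 15.0% in line 1 of set b and 13.5% against 15.6% in line 1 of N656I. They were above in line 2 of set a, with 22.9% against 16.1%. In K777A part 1 of the housekeeping bodies had 8.5% and 8.6%, against 7.3% and 8.3% for all genes, and part 3 had 13.7% in both lines, against 8.4% and 9.6% for part 3 of all genes. In line 1 of DNMT3B set a the 4 parts had 15.6%, 23.8%, 27.7% and 28.0%, and those of all genes 17.8%, 19.3%, 20.3% and 20.8%. In each of the 10 DNMT3B-family lines parts 3 and 4 of the housekeeping genes were above those of all genes. The level fell back within 10 kb of the gene end, to at most 15.3% in set a and to 6.6% and 6.9% in K777A. In the same 10 kb, the DNMT3A lines had 32.2% and 34.2%, against 37.5% and 37.6% in all genes. The flanks farther out, from 25 to 50 kb, had 16.6% and 17.0% upstream and 16.4% and 16.0% downstream in set a, close to the 15.6% to 17.5% of all genes. Nearer to the genes line 2 of set a departed from all genes in the flanks too, with 18.5% against 13% in the 10 kb upstream and 12% against 15.7% in the 10 kb downstream.

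**Figure D2:**
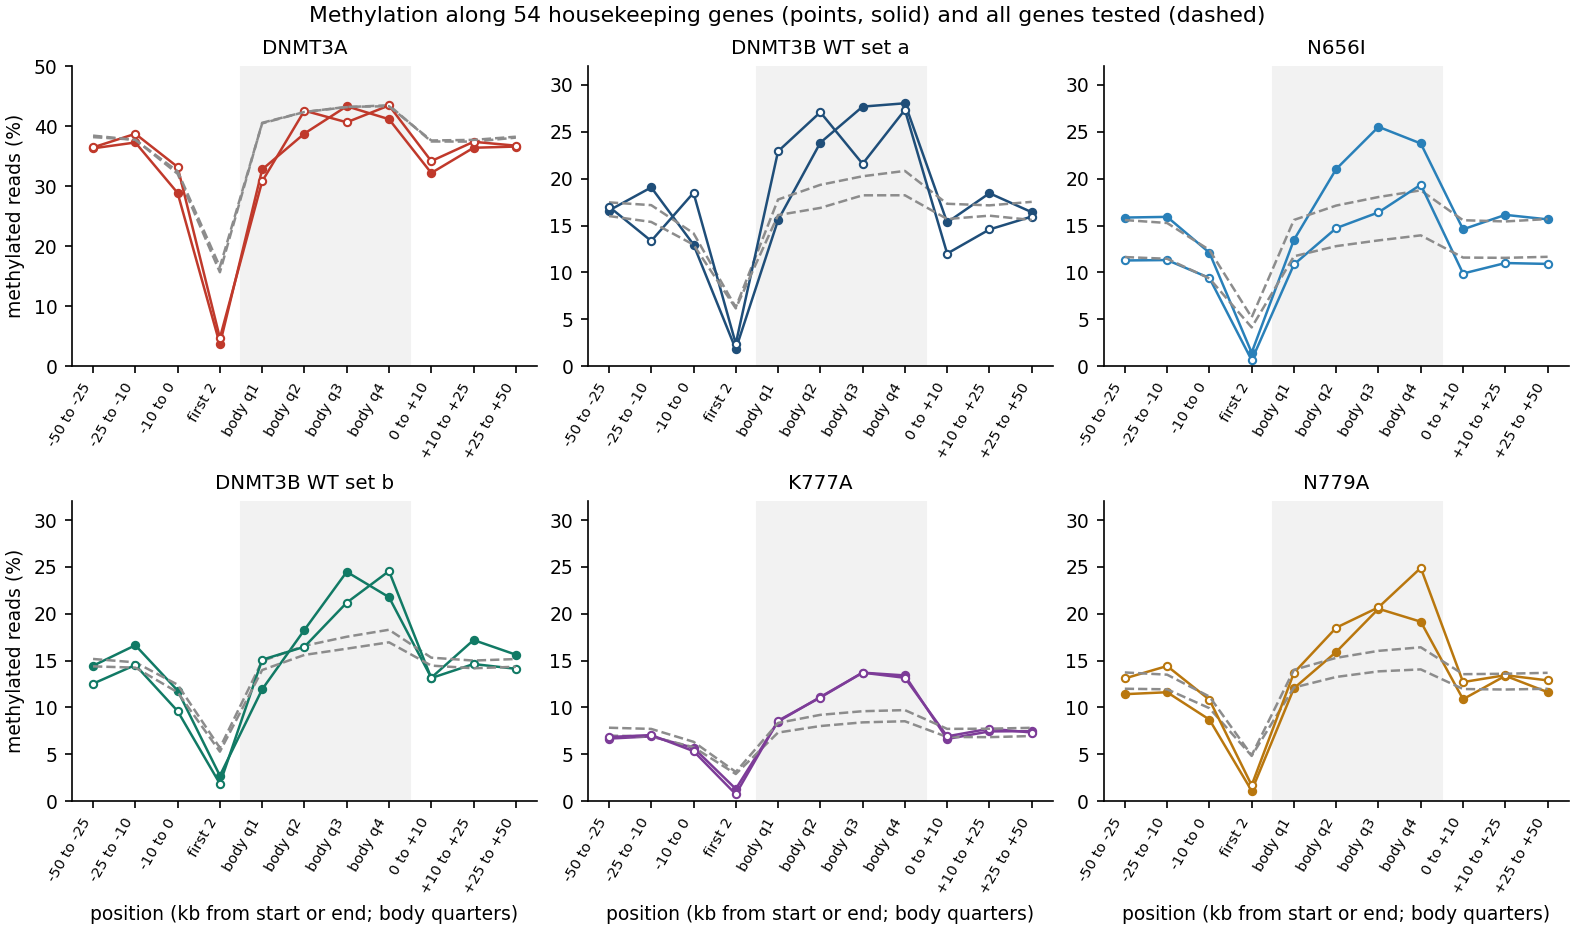
Methylation (y axis, percent of summed reads) by position (x axis, distance in kb upstream of the start and downstream of the end, first 2 kb, and 4 equal parts of the gene body, q1 to q4, shaded) in the 54 housekeeping genes (points, filled for line 1 and open for line 2 of each group) and in all genes tested (dashed lines). In the 5 DNMT3B-family panels the solid lines are above the dashed ones in parts 3 and 4 of the body, and in part 1 they are below the dashed ones in the DNMT3A panel and in 6 of the 10 DNMT3B-family lines.

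In all 10 DNMT3B-family lines the 54 genes were above all genes in exons and in introns of the body. In set b, exonic body sites of the 54 genes had 20.8% and 21.6% and intronic ones 18.3% in both lines, where all genes had 18.5% and 17.7% in exons and 16.7% and 15.5% in introns. In K777A the exons of the 54 genes had 12.1% and 10.9% and their introns 11.5% and 12.2%. With DNMT3A, exons (39.0% and 39.7%) and introns (39.2% in both lines) of the 54 genes had less than the exons (41.8% and 41.7%) and introns (42.5% in both lines) of all genes.

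By local CpG density the widest gap between body and flanks in each of the 12 lines was at 6 to 11 CpG sites within 100 bp on either side. There, body and flanks of the 54 genes had 10.7% and 4.6% in K777A line 1, and 10.2% and 4.9% in line 2. At 1 to 2 sites the same lines had 11.9% against 8.9% and 12.6% against 8.5%. At 1 to 2 sites the gap was small in some other DNMT3B-family lines, with 19.6% against 19.3% in line 2 of set a, 17.8% against 16.8% in line 1 of set b and 13.9% against 12.9% in line 2 of N656I. The DNMT3A lines had 37.3% against 23.8% and 35.9% against 26.8% at 6 to 11 sites, and 40.2% against 42.0% and 40.1% against 41.6% at 1 to 2 sites. All genes had a gap at 6 to 11 sites too, 37.8% against 27.5% and 38.0% against 28.1% with DNMT3A and 6.79% against 4.92% and 8.12% against 5.80% with K777A. When each site was set against the level of its line for the same neighbouring bases and density, the median difference of the 47 genes remained between 0.50 and 0.72 in the DNMT3B-family groups and 0.20 in DNMT3A. Against flank sites outside any annotated gene, 39 genes had sufficient coverage, with group medians of 0.43 to 0.75 in the DNMT3B-family groups and 0.13 in DNMT3A.

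Gene by gene, the difference from 0 was tested with limma on all 12 lines, with p-values adjusted by Benjamini-Hochberg over the 12533 genes. In DNMT3B set a, 5 of the 47 genes were higher in the body, where 6.67% of all genes were, and 1 was lower, where 3.6% were. The other groups gave no call among the 47 genes: the share of all genes called was 0.016% higher and 0.0718% lower in set b and 0% in DNMT3A, N656I, K777A and N779A. At an unadjusted p under 0.05 limma gave 4 of the 47 genes in DNMT3A, where 8.23% of all genes were below it, and 23 in set a (36.8%), 4 of them lower. It gave 11 in N656I (10.1% of all genes), 12 in set b (15.5%), 2 of them lower, 13 in K777A (10.7%) and 12 in N779A (10.3%). The quasi-binomial regression called 1 of the 47 genes in DNMT3A, where it called 4.65% of all genes, and none of the 47 in the other groups, where it called 0.287% in N656I, 0.016% in K777A and 0% in both WT sets and N779A.

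These counts turned on the lines of set a. All groups shared 1 estimate of the spread, and without line 2 of set a the median standard error of the 47 genes in the groups of 2 lines was 0.34, against 0.50 with all 12 lines. In the test of 12 lines the standard errors of set a came from this shared estimate too. They do not measure the spread of its own 2 lines, of which line 2 varied most. Leaving out line 1 of set a in place of line 2 gave the same numbers of calls in the other 5 groups, since in both cases set a adds nothing to the spread, and 19 higher and 13 lower calls for the sparse line 2 left alone. In that fit 28.1% of all genes were called higher and 29.4% lower. The test without line 2 called 6 genes higher in N656I (4.17% of all genes), 11 higher and 2 lower in set b (9.82% and 4.59%), 12 higher in K777A (5.29%) and 9 higher in N779A (4.66%). In DNMT3A it called none, where 2.09% of all genes were called higher and 0.662% lower, and limma gave 9 of the 47 at an unadjusted p under 0.05 (19.8% of all genes), 2 of them lower. The remaining line of set a gave 1 call higher (0.327% of all genes, and 0.351% lower), for which it was assumed to vary like the other groups. The lower shares of all genes were 1.35% in N656I, 1.16% in K777A and 1.28% in N779A, with none of the 47 genes among them. The 6 calls of set a in the test of 12 lines were all lost, and they were also lost when any 1 of the 10 lines of the other groups was left out. In all, 21 of the 47 genes were called in at least 1 group without this line, against 23.1% of all genes, and 5 in 3 or more groups, against 3.1%. These were Polr2a, Vars, Prpf8, Snrnp200 and Psmd1, which were picked out after their values were seen.

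Of the genes of transcription, Polr2a (chr11:69733997-69758637, GRCm38) encodes the largest subunit of RNA polymerase II, whose tail carries the factors that mark the gene body. In its body, 32.6% and 48.6% of reads were methylated in the DNMT3A lines, against 28.5% and 30.8% in the flanks. The body had 39.0% and 13.8% in set a (flanks 11.1% and 18.3%), 27.6% and 18.8% in N656I (8.0% and 8.2%), and 24.4% and 19.0% in set b (7.6% and 11.5%). It had 13.3% and 9.8% in K777A (5.7% and 4.4%), and 21.6% and 25.3% in N779A (8.3% and 11.2%). Body and flank levels did not overlap in 5 of the 6 groups, set a being the exception through its line 2, in which 22 body sites were covered. Without that line limma gave a difference of 1.76 ± 0.35 (SE) in N656I (adjusted p = 0.00782), 1.41 ± 0.35 in set b (adjusted p = 0.013), 1.30 ± 0.35 in K777A (adjusted p = 0.036) and 1.52 ± 0.35 in N779A (adjusted p = 0.0193). Polr2b, the second largest subunit, had differences of 0.33 and 0.81 in DNMT3A, 0.36 to 1.61 in the 9 DNMT3B-family lines and 2.03 in line 2 of set a.

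Translation genes included the gene with the highest median over the 9 DNMT3B-family lines, Vars, which encodes the valyl-tRNA synthetase (chr17:35000987-35016322). Its differences were 0.75 and -0.07 in DNMT3A, 1.42 and 1.11 in set a, 1.39 and 1.87 in N656I, 2.46 and 0.65 in set b, 1.62 and 1.60 in K777A and 1.65 and 1.59 in N779A. Only the lower line of set b came below the higher DNMT3A line. Eprs and Iars, 2 further tRNA synthetases, were above 0 in both DNMT3A lines, with 0.50 and 1.06 and with 0.92 and 0.56. Eif3a and Eif3c, subunits of the initiation factor that prepares the small ribosomal subunit, had medians of 0.85 and 0.87 over the 9 DNMT3B-family lines. In line 2 of set a they were at -4.13 and -4.92, on 25 and 8 covered body sites.

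Among the 11 RNA processing genes, Prpf8 and Snrnp200 had the highest medians over the 9 DNMT3B-family lines. Prpf8, the scaffold at the catalytic centre of the spliceosome, had body levels of 40.2% and 39.2% and flank levels of 35.9% and 34.1% in the DNMT3A lines. In line 1 of set a the body had 27.6% and the flanks 13.7%, and in K777A the body had 11% and 14.1% and the flanks 6.3% and 4.7%. Its differences were 0.26 and 0.31 in DNMT3A, below the 0.35 to 1.74 of all 10 DNMT3B-family lines. Snrnp200, the helicase that unwinds the U4 and U6 RNAs (chr2:127208386-127240451), had differences of 0.58 and -0.09 in DNMT3A and 0.17 to 1.70 in the 9 DNMT3B-family lines. In line 2 of set a it reached 4.89, with 84.8% of body reads methylated on 13 covered sites. The helicase gene Dhx9 had -0.38 and -0.62 in DNMT3A and -0.14 to 1.27 in the 10 other lines. The lowest medians of this role over the 9 DNMT3B-family lines were -0.16 for the RNA helicase gene Ddx5, 0.03 for Hnrnpm, which encodes an RNA-binding protein, and 0.24 for Ncl, the gene of nucleolin. In line 2 of set a these 3 genes were at -5.73, 3.37 and 0.94. Ncl was 1 of the 2 genes lower in set b without line 2 of set a (difference -1.74 ± 0.54, adjusted p = 0.0357 by limma).

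Replication and repair was the largest role with 14 genes tested. Top2a, the topoisomerase that untangles replicated chromosomes (chr11:98992943-99024189), had differences of 0.88 and 0.38 in DNMT3A, 0.71 and 0.46 in N656I, 1.27 and 0.48 in set b, 1.55 and 2.21 in K777A and 0.84 and 0.75 in N779A. In set a it had 1.41 in line 1 and 4.85 in line 2, and limma gave 3.13 ± 0.63 (adjusted p = 0.0346). This standard error came from the spread shared by all groups, whereas the SD of the 2 set a lines was 2.43. In K777A, without line 2 of set a, the difference was 1.88 ± 0.32 (adjusted p = 0.0035). Parp1, a sensor of DNA breaks, had 0.27 and 0.26 in DNMT3A and 0.36 to 1.96 in the 9 DNMT3B-family lines, but -0.52 in line 2 of set a. Without that line its limma difference was 1.25 ± 0.28 in K777A (adjusted p = 0.0145) and 1.44 ± 0.28 in set b (adjusted p = 0.00326). Pole, the catalytic subunit of the leading-strand polymerase, was above 0 in all 12 lines, from 0.47 to 1.45.

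The MCM genes encode the ring-shaped helicase that opens DNA at replication origins, and 5 of the 6 had sufficient coverage. Mcm5 (chr8:75109569-75128439) had less methylation in the body than in the flanks with DNMT3A, 39.2% against 46.9% and 41.2% against 53.7%. With DNMT3B set a it had more, 36.5% against 25.2% and 53.5% against 15.5%. Its difference of -0.45 and -0.73 in DNMT3A was below the -0.14 to 2.65 of the 10 DNMT3B-family lines. Mcm3 had -0.45 and -0.21 and Mcm7 -1.51 and -0.59 with DNMT3A, against -0.20 to 1.53 and -0.57 to 0.79 in the 9 DNMT3B-family lines. Mcm6 had -0.75 and -0.17 with DNMT3A and spread from -1.14 to 0.89 in the 9 lines, and Mcm2 had -0.20 and 0.02, and -0.05 to 1.41. In line 2 of set a Mcm3 was at -0.90, Mcm7 at 2.15, Mcm6 at -0.35 and Mcm2 at -2.01. The DNMT3A values of Mcm6 and Mcm2 lay within or next to the range of the DNMT3B forms. Mcm4 had 3 covered body sites in line 2 of set a and was not tested. Its differences were 0.99 and 0.51 in DNMT3A and -0.61 to 1.46 in the other lines.

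In some transport genes, such as Cltc and Copa, both DNMT3A values lay within the range of the 9 DNMT3B-family lines. In Tpr and Kpnb1 the lower DNMT3A value was below that range. Tpr, a protein of the nuclear pore basket, had 0.26 and -0.23 in DNMT3A and 0.09 to 1.34 in the 9 DNMT3B-family lines. Cltc, the clathrin heavy chain, had 0.20 and 0.17 in DNMT3A and -0.29 to 0.81 in the 9 lines, so that DNMT3A was in the middle of the range. Kpnb1, the import receptor importin beta, had -0.16 and -0.41 in DNMT3A and -0.31 to 0.78 in the 9 lines. Copa, a subunit of the coat of vesicles between the Golgi and the endoplasmic reticulum, was as high in DNMT3A (0.80 and 0.86) as its median of 0.83 over the 9 lines. Line 2 of set a had 1.89 in Tpr, 0.68 in Cltc, -1.84 in Kpnb1 and 0.57 in Copa.

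Of the protein folding and turnover genes 4 passed the filter. Psmd1, a scaffold subunit in the regulatory particle of the proteasome, had 0.52 and 0.92 in DNMT3A and 0.48 to 1.25 in the 9 DNMT3B-family lines. It was called in set a in the test of 12 lines (1.24 ± 0.31, adjusted p = 0.0395) and, without line 2 of set a, in set b, K777A and N779A. Vcp, the segregase that pulls proteins out of complexes, had 1.32 and -0.24 in DNMT3A and 0.54 to 1.37 in the 9 lines. In line 2 of set a Psmd1 was at 1.8 and Vcp at 2.42, both above these ranges.

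Fasn, the fatty acid synthase, had 0.26 and -0.22 in the DNMT3A lines and 0.05 to 1.29 in the 9 DNMT3B-family lines, and 1.90 in line 2 of set a. In Eno1, which encodes the glycolytic enzyme enolase (chr4:150236721-150248879), the body was less methylated than the flanks in 11 of the 12 lines. Its body levels were 18% and 17.1% in DNMT3A (flanks 36.2% and 35.9%), 3.8% and 0% in set a (16.1% and 23.4%), 9.8% and 11.2% in N656I (12.9% and 8.0%) and 0% and 3.5% in set b (10.4% and 12.3%). They were 1.1% and 2.7% in K777A (4.6% and 6.1%) and 0.73% and 7.0% in N779A (8.4% and 9.7%). Only line 2 of N656I had more in the body. The limma difference was -4.17 ± 1.01 in set a (adjusted p = 0.0382), and -3.65 ± 0.67 in set b without line 2 of set a (adjusted p = 0.00247).

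Gapdh, the gene of glyceraldehyde-3-phosphate dehydrogenase (chr6:125161715-125166467), is the shortest of the 54 and had 2 to 24 covered body sites per line. Over the 12 lines, 5 of 606 body reads were methylated, and 9 lines had none. In the DNMT3A lines 0 of 114 reads were, which allows a share of up to 2.63% (for counting error only), whereas the flanks had 33.8% and 35.4%. It did not pass the filter, nor did Eef2, the elongation factor that moves the ribosome, which had no covered body site in line 2 of set a and 10 to 51 in the others. The body of Eef2 was below its flanks in both DNMT3A lines, with 2.3% against 25.9% and 8.5% against 24.6%, and on either side of them in the DNMT3B-family lines. The remaining genes that did not pass were Mcm4, the chaperonin genes Cct5 and Hspd1, the mitochondrial chaperone gene Hspa9 and the proteasome gene Psmd2, with 1 to 4 covered body sites in line 2 of set a. All 7 failed in this line.

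By the mean over the 4 WT DNMT3B lines, the 5 highest genes were Top2a, Snrnp200, Vars, Mcm5 and Polr2a and the 5 lowest Eno1, Ddx5, Msh6, Cct2 and Eif3c. The order at both ends rested in large part on line 2 of set a. Top2a was at 4.85 there, against a median of 0.84 over the other 9 DNMT3B-family lines, Snrnp200 at 4.89 against 1.11 and Mcm5 at 2.65 against 0.77. Without it the highest medians were those of Vars (1.60), Polr2a (1.43) and Prpf8 (1.32). In that line the 5 lowest genes were between -4.13 and -6.16, on 5 to 9 covered body sites. Where no body read was methylated there, as in Eno1, the 0.5 added to the counts and the read number set the size. Over the other 9 DNMT3B-family lines, Eif3c had a median of 0.87 and Cct2 of 0.29, whereas Eno1 (-1.78), Msh6 (-0.53) and Ddx5 (-0.16) remained below 0. Msh6, a mismatch repair protein, had 23.6% and 26.9% in the body and 45.4% and 44.9% in the flanks with DNMT3A.

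**Figure D3:**
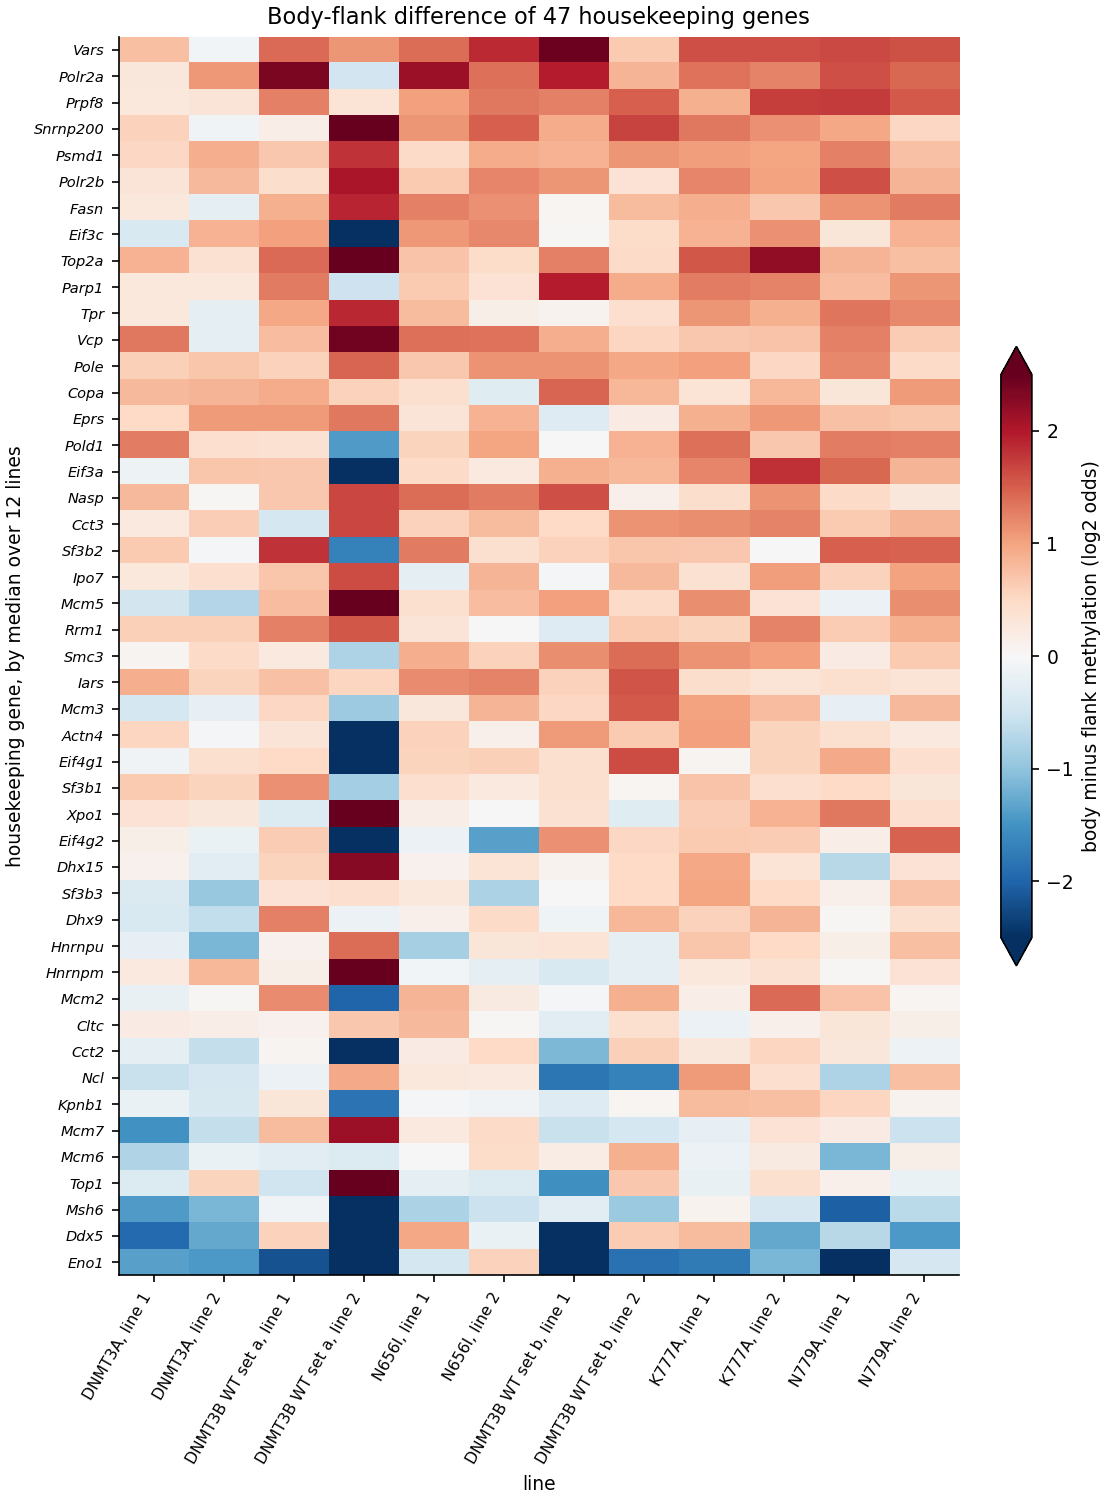
Body-flank difference (colour, log2 odds, scale ending at 2.5 in either direction) of the 47 housekeeping genes (rows, ordered by their median over 12 lines) in the 12 lines (columns). Red, a body above its flanks, fills most of the upper part in the DNMT3B-family lines, Eno1, Ddx5 and Msh6 are mostly blue, and line 2 of DNMT3B set a has the most saturated cells in both directions.

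Grouped by role, the medians over the 9 DNMT3B-family lines ranged from 0.43 for RNA processing (11 genes) to 1.30 for the 2 polymerase genes. The 14 replication and repair genes had line medians of 0.34 to 0.78 in the 9 lines and of -0.07 and 0.15 in the DNMT3A lines. The 7 translation genes had 0.56 to 1.09, against 0.14 and 0.56. RNA processing genes had 0.09 to 0.80, against -0.26 and 0.11, the lowest line falling just below the higher DNMT3A line. Transport genes had 0.02 to 0.85 and overlapped with the 0.23 and 0.26 of DNMT3A. The 4 folding and turnover genes had 0.37 to 0.96, against 0.19 and 0.38, and the 3 metabolic and cytoskeletal genes 0.05 to 0.91, against -0.22 and 0.26. Line 2 of set a went the other way in translation genes (-2.55) and in metabolic and cytoskeletal genes (-3.74). It was above the 9 lines in transport (1.16) and in folding and turnover (1.74) and within their range in transcription (0.78), RNA processing (0.42) and replication and repair (0.55).

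**Figure D4:**
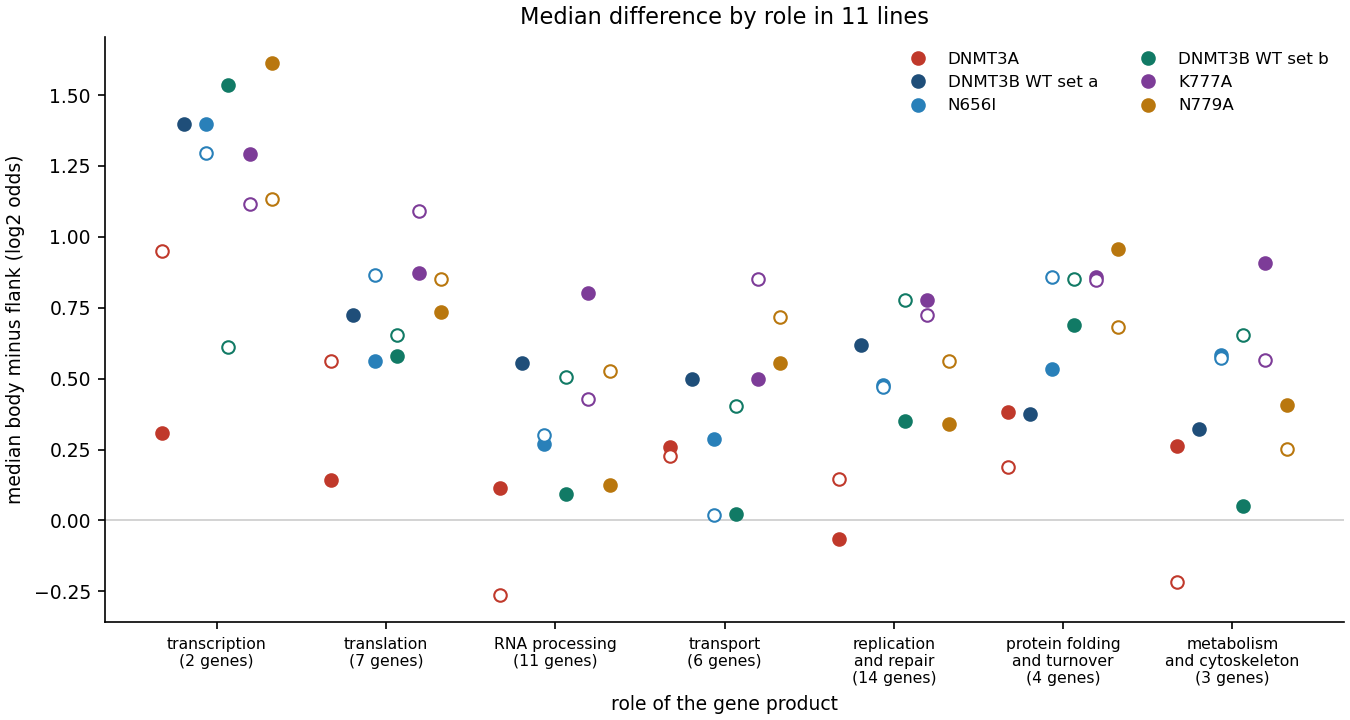
Median body-flank difference (y axis, log2 odds) of the genes of each role (x axis, number of genes tested in brackets) in 11 lines; points are lines, coloured by group, filled for line 1 and open for line 2, and line 2 of DNMT3B set a is left out (its medians for translation and for metabolism and cytoskeleton were -2.55 and -3.74). For replication and repair and for translation the DNMT3A points are at or below the lowest DNMT3B-family points, and for transport they are within their range.

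The 54 genes are 4753 to 76877 bp long. Across the 47 genes, which share their libraries and are not independent replicates, Pearson's r between log10 length and the mean difference was 0.60 (Spearman's rho 0.50) for DNMT3A and 0.25 (rho 0.13) for the 9 DNMT3B-family lines, or 0.35 (rho 0.26) with line 2 of set a added. The mean differences with DNMT3A and with the 9 lines went together over the 47 genes with r = 0.72 and rho = 0.60, and those with DNMT3A and all 10 lines with r = 0.73 and rho = 0.63.

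The question whether DNMT3A and DNMT3B differ at these genes was put to a direct test in set a. No gene of the 47 or of all 12533 passed limma's test of the difference (0% called in either direction), and 6 of the 47 had an unadjusted p under 0.05 (13.3% of all genes), all 6 lower with DNMT3A. The quasi-binomial regression called none of the 47 and 0% of all genes. The median difference between the groups over the 47 genes was -0.38, against 0.14 over all genes, with a median standard error of 0.70 per gene. Without line 2 of set a the median was -0.49, against 0.02, with a standard error of 0.59, and without line 1 of DNMT3A it was -0.22. The missing calls do not show that the enzymes act alike at these genes.

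In the order of the 4 lines, both DNMT3A lines were below both set a lines in 15 of the 47 genes (16.5% of all genes) and above them in 2 (21.6%). Both were below all 10 DNMT3B-family lines in 4 genes, Prpf8, Mcm5, Mcm7 and Dhx9, where 1.24% of all genes were. Without line 2 of set a there were 6, with Parp1 and Mcm3 added (2.14% of all genes). Both DNMT3A lines were above the 9 others in none of the 47, a pattern seen in 2.35% of all genes. These genes were named after their values were seen.

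N656I was compared with the same set a lines as DNMT3A, and no gene passed (0%), with 4 of the 47 at an unadjusted p under 0.05 by limma (12.2% of all genes) and a median of 0.07 (all genes 0.08). Without line 1 of set a the median was -0.27, and without line 1 of N656I it was -0.02. Without line 2 of set a it was -0.10 and none of the 47 had an unadjusted p under 0.05 (4.11% of all genes). K777A against set b also gave no call (0%). The median over the 47 genes was 0.36, against 0.05 over all genes, and 2 of the 47 had an unadjusted p under 0.05 by limma (3.34% of all genes). Without line 1 of set b the median was 0.16. N779A, compared with the same 2 set b lines, gave no call (0%), a median of 0.17 against 0.02 and 1 gene at an unadjusted p under 0.05 (3.2% of all genes). This median was 0.11 without line 1 of set b, 0.25 without its line 2 and 0.09 without line 1 of N779A. The median standard error per gene was 0.70 in each of these comparisons.

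For K777A the lower overall level of the line (7.17% and 8.34% at these densities genome-wide, against 15.2% and 13.9% in set b) stands beside its larger ratio, and the part of the level in the ratio was not tested. K777A also had the most covered body sites per gene, with medians of 145 and 154, against 50 and 67 in set b. The part of coverage was not tested either. Set a and set b, which express the same protein, differed by a median of -0.07 over the 47 genes and over all genes, and no gene passed (0%). Over the 47 genes the median was -0.45 without line 1 of set a and 0.05 without its line 2, and -0.0008 without line 1 of set b and 0.11 without its line 2. Limma gave 10 of the 47 an unadjusted p under 0.05 between these sets (16% of all genes), more than in any of the other 4 comparisons, and 2 without line 2 of set a (8.36% of all genes).

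A second list of 87 housekeeping genes, of which 78 could be tested, had line medians of 0.30 and 0.27 in DNMT3A and of 0.35 to 0.83 in the 10 DNMT3B-family lines. All genes had medians of 0.24 and 0.22 in DNMT3A, so this list was not below them there. In both DNMT3A lines, 44 of the 78 bodies were above their flanks and 11 below, where all genes had 52.6% and 18.6%. The first list had 20 of 47 above and 13 below. Genes of the second list had bodies above flanks in all 9 DNMT3B-family lines in 31 of 78 cases (14.3% of all genes), and in all 10 in 20 (9.13%). In 37 long neuronal genes, which ES cells are known to keep mostly silent, the medians were 0.15 and 0.00 in DNMT3A and -0.25 to 0.18 in the 10 lines, with 1 of 37 above its flanks in all 9 lines and in all 10. Both lists were put together with earlier results on these data known. They overlap with the 54 genes in no member, but share the libraries with them.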

How the data were processed

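The deposited values are counts: for each line and CpG site, the methylated reads and all reads, which the authors obtained with Cutadapt, Bismark 0.18.1 and Bowtie 1.2 (mm10), without double counting where mates overlap, without pairs rich in non-CpG methylation (at least 3 in a read), and with both strands of a CpG joined. The Cutadapt version is 1.12 in the submitters' processing notes and differs in the paper. All 21867550 sites read CG in GRCm38. Gene models were GENCODE M21.

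Reads were summed over the body and the flanks of each gene, and log2((m + 0.5)/(u + 0.5)) of methylated (m) and unmethylated (u) reads was taken. The body-flank difference was fitted with limma 3.58.1 in R 4.3.3 (1 mean per group, moderated variances with a trend on the number of covered body sites, 12 lines, Benjamini-Hochberg, threshold 0.05). Lines with fewer covered sites were not given less weight in this fit. Python 3.11.15, numpy 2.4.6 and pandas 2.3.3 were used. The fits were also run on simulated reads, overdispersed as if each covered site were 1 draw. That simulation had no other spread of the body-flank difference between lines, so it cannot vouch for the calls made here. eRRBS reads carry no molecular identifiers, so the error is the spread between lines.

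The 54 genes, the lists and the tests were chosen with earlier results of these data known. Named genes were the 5 highest and 5 lowest by the mean of the 4 WT DNMT3B lines, Polr2a, Eef2, Gapdh, Eno1, genes past the threshold between groups (none) and genes that failed the filter; others were named after their values were seen. Alternatives were flanks outside genes or of 20 kb, equal weights per site, sites with at least 10 reads, leaving out very deep or CCGG sites, a correction for context and density, a quasi-binomial regression, only the lines compared, a replicate block, centring, a filter of 1 covered site and leaving out each line. Weights by covered sites were added after seeing the data.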

Additional observations from a re-analysis of the deposited data

How the results depend on the processing

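The differences were recomputed with 12 other settings, with each of the 12 lines left out and with 1 setting chosen after seeing the data, and the numbers of housekeeping genes called changed with them. The share of all genes called stands in brackets. In no comparison between groups did any setting other than a left-out line give a call. With the groups' own lines only, 8 genes were called in DNMT3A (18.1%), 0 in set a (0%), 13 in N656I (15.8%), 4 in set b (4.99%), 22 in K777A (18.8%) and 2 in N779A (1.21%). With equal weights per site, 13 were called in set a (13.6%), 2 in N656I (1.19%), 5 in set b (4.17%), 5 in K777A (1.8%) and 4 in N779A (0.614%). With lines weighted by their covered sites, chosen after seeing the data, 6 were called in DNMT3A (11.4%), 0 in set a (0.734%), 3 in N656I (2.38%), 1 in set b (1.91%), 5 in K777A (2.66%) and 8 in N779A (2.99%). The quasi-binomial regression called 1 in DNMT3A (4.65%) and 0 in set a (0%). Set a also had 0 calls with flanks outside genes (0.18%) and with sites of at least 10 reads (0%, with 1 of the 54 genes testable), and 3 after centring (7.6%). The cause of these shifts was not tested.

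Leaving out each line gave 0 to 32 calls in set a, 0 to 6 in N656I, 0 to 13 in set b, 0 to 12 in K777A, 0 to 9 in N779A and 0 in DNMT3A. Between groups it gave 0 to 27 for DNMT3A against set a, 0 to 23 for N656I against set a, 0 to 29 for set a against set b and 0 for K777A and N779A against set b. The highest counts were without line 1 of set a, which left the sparse line 2 alone. In that fit 57.5% of all genes were called in set a, 5.51% in N656I, 14.4% in set b, 6.45% in K777A, 5.94% in N779A and 2.75% in DNMT3A, and 46.8%, 45.8% and 47.5% in the first 3 comparisons named. Leaving out any 1 of the 10 lines outside set a took the 6 calls of set a to 0. With a replicate block, 6 genes were called in set a (9.02%) and 0 in every other result. Same-numbered lines did not deviate together in the body-flank difference (correlations of -0.02 to 0.03 over 12533 genes). A shift common to body and flanks would not show in this measure, so it cannot settle whether the numbers pair lines. Outside the test of 10 reads, group medians over the genes tested stayed above 0 under every alternative, with 0.02 to 0.26 in DNMT3A (the lowest after centring) and 0.26 to 0.84 in the DNMT3B-family groups. The median standard error of a gene was 0.50 in groups of 2 lines, and 0.34 without line 2 of set a.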
